A study of Homo sapiens with 6 samples.

Results

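HEK293T cells, an easily transfected human embryonic kidney line, were compared after transfection with ATF6 labelled wild type and without transfection. The comparison rests on 2 of the 6 libraries of the study, 1 on each side: NT, labelled non-transfected, and WT, transfected with the lipid reagent Lipofectamine. The other 4 cultures received ATF6 with the M67V missense change, the N267star nonsense change, or a deletion of several exons, ex8-14del or ex2-3del. All cells also keep their own ATF6, and every culture belongs to the same line. NT is non-transfected by its label but the protocol for growing the cells mentions an empty vector, so WT may differ from NT by transfection as well as by the introduced ATF6. The other 4 cultures received ATF6 constructs too, and their values stand beside the results. The sources used here do not give the length of the wild-type construct. The header of another deposited count table has a bare number where WT stands in the table used, and the authors' deposited comparison sheets under that number and under WT hold the same log2 fold change for 15473 genes. Of 37993 gene symbols, 11301 reached 5 CPM, a count scaled to library size, in WT or NT and were compared.

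ATF6 is a transcription factor held in the membrane of the endoplasmic reticulum (ER), where secreted and membrane proteins fold. When misfolded proteins accumulate it moves to the Golgi and is cut by proteases, and the released fragment enters the nucleus and switches on genes of ER chaperones and of ER-associated degradation. In promoters it is known to act through the ER stress element, where it works with the CCAAT-binding factor NF-Y.

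The promoters of HSPA5, which encodes the main ER chaperone BiP, and of HERPUD1, an ER membrane protein of the degradation machinery, show what such elements look like, and those of NUCB1 and TRIM5 show an element in 2 genes outside the ER lists. The windows run from 250 bases before to 50 bases after the annotated start, are written 5′ to 3′ on the gene's strand, and come from RefSeq on GRCh38.p14. Capitals mark the element. They are chr9:125241294-125241593 (minus strand) for HSPA5, chr16:56931892-56932191 (plus strand) for HERPUD1, chr19:48900062-48900361 (plus strand) for NUCB1 and chr11:5685025-5685324 (minus strand) for TRIM5.
HSPA5: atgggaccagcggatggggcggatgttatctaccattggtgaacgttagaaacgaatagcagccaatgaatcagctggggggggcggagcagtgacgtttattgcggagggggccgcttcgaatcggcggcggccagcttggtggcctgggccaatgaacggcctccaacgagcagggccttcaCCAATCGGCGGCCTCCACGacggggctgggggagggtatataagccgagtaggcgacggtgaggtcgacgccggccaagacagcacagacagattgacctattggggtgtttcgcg
HERPUD1: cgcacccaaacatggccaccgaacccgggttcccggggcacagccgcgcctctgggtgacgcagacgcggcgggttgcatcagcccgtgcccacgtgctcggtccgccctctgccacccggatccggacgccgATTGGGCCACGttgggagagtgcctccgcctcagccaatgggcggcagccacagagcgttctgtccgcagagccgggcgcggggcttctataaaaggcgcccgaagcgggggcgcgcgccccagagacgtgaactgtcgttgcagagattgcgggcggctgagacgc
NUCB1: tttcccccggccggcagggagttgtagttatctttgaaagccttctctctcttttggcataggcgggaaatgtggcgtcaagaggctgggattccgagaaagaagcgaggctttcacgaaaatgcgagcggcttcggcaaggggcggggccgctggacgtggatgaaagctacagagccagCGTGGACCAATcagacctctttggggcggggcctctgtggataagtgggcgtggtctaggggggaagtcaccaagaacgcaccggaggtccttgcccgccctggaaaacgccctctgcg
TRIM5: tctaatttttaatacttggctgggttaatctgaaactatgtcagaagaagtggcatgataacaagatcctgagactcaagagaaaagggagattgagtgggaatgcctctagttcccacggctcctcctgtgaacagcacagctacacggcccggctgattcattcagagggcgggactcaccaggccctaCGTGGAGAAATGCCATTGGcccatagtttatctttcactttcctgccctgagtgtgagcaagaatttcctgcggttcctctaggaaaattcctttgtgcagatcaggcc

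HSPA5 carries element I, CCAAT and CCACG with 9 bases between them, starting at base -66 from the annotated start. TRIM5 carries it on the other strand at -59. HERPUD1 carries element II, ATTGG and CCACG with 1 base between them, at -117, and NUCB1 carries it on the other strand at -69. These matches describe letters in a window and not bound sites.

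The introduced gene and its known targets set the scale. ATF6, counted over the cells' own and the introduced transcripts, stood at 85.1 CPM in NT, 1148 in WT, 1493 in M67V, 713 in N267star, 2410 in ex8-14del and 1349 in ex2-3del. HSPA5 stood at 559 CPM in NT, 3634 in WT, 3375 in M67V, 693 in N267star, 741 in ex8-14del and 600 in ex2-3del. HERPUD1 stood at 48.5 CPM in NT, 343 in WT, 310 in M67V and between 54.4 and 58.2 in the other 3. Both targets were thus far higher in WT and M67V than in the other 4 libraries. The log2 ratios of WT over NT were 2.70 (95% interval 2.67 to 2.73) for HSPA5 and 2.82 (2.71 to 2.93) for HERPUD1. HSPA5 was also above NT in ex8-14del, with a log2 ratio of 0.41 (0.37 to 0.45), and in N267star, with 0.31 (0.27 to 0.35). Each interval is the exact one for a ratio of counts from a pair of libraries. Intervals cover counting error only, and with 1 library a side no difference here has a replicate check or a p-value.

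A gene was counted as higher or lower when WT and NT were 1.3-fold or more apart and the interval excluded equality, and was placed in a second class at 2-fold or more. Of the 11301 genes, 82 had a WT level at least 2-fold above NT (0.726%) and 266 were 1.3- to 2-fold higher (2.35%). A further 141 were 1.3- to 2-fold lower (1.25%) and 7 were at least 2-fold lower (0.0619%). The median log2 ratio over all of them was -0.01. In the authors' deposited table, of these genes, 81 of the 82, 115 of the 266, 6 of the 141 and 6 of the 7 carry an adjusted p under 0.05, which DESeq computed from 1 library a side. Genes in the ER lists, 435 of those compared, supplied 21 of the 82, 48 of the 266 and 1 of the 141. The account below is of the 7734 genes that are in no ER list and whose gene body overlaps no other expressed gene. Among them 40 were at least 2-fold higher (0.517%), 161 were 1.3- to 2-fold higher (2.08%), 88 were 1.3- to 2-fold lower (1.14%) and 1 was at least 2-fold lower (0.0129%).

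**Figure D1:**
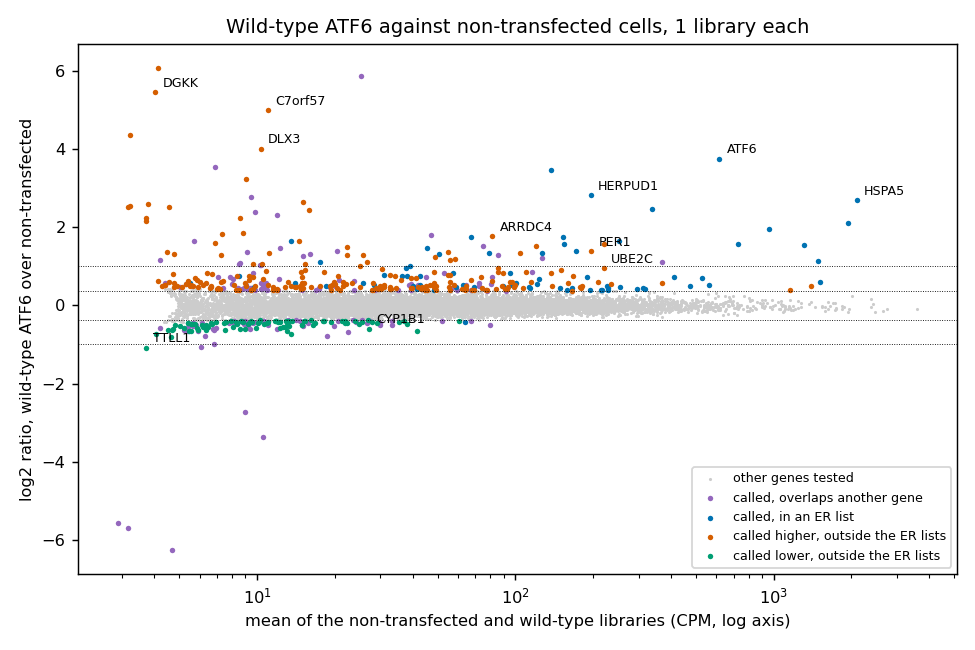
Log2 ratio of WT over NT against the mean CPM of both libraries (log axis) for the 11301 genes compared, with dotted lines at 1.3-fold and 2-fold in both directions. Orange and green points are called genes outside the ER lists, blue points are in an ER list and purple points overlap another expressed gene. The 40 orange genes above 2-fold reach low levels at the left, and the genes below -2 are all purple.

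Several of the highest genes outside the ER were close to silent in NT. MISP, an actin-binding protein that positions the mitotic spindle, had 0 counts in NT and 131 in WT, which makes it at least 45.03-fold higher against a floor of 3 counts. It had 115 counts in M67V, 2 in N267star, 22 in ex8-14del and 0 in ex2-3del. DGKK, a diacylglycerol kinase, had 1 count in NT, 127 in WT, 122 in M67V and between 1 and 5 in the other 3 libraries, and its log2 ratio was 5.46 with an interval of 4.53 to 12.35. Both genes were thus high in WT and M67V, and MISP had an intermediate level in ex8-14del.

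C7orf57, an open reading frame without a settled role, stood at 0.55 CPM in NT, 21.5 in WT, 24.8 in M67V and between 0.77 and 1.61 in the others. GRM8, a metabotropic glutamate receptor of neurons, had 3 counts (0.18 CPM) in NT, 6.23 CPM in WT, 5.93 in M67V and no more than 0.30 elsewhere. DLX3, a homeobox transcription factor of skin, tooth and placenta development, stood at 1.10 CPM in NT, 19.6 in WT, 24.7 in M67V, 1.06 in N267star, 0.48 in ex8-14del and 2.13 in ex2-3del. The WT level of each of these 3 genes was several times that in any library other than M67V.

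The next genes encode secreted, surface, cytoskeletal and signalling proteins. TLL2, a secreted metalloprotease of the tolloid family, stood at 1.65 CPM in NT, 16.5 in WT, 20.3 in M67V and between 2.43 and 3.33 in the others. CRISPLD2, a secreted protein, stood at 0.98 CPM in NT and 6.55 in WT. CBLN1, a secreted organiser of cerebellar synapses, stood at 0.85 CPM in NT and 5.48 in WT. The membrane protein TMEM132E stood at 0.85 CPM in NT and 5.60 in WT. CORO1A, an actin-binding coronin of leukocytes, stood at 4.82 CPM in NT, 26.9 in WT, 33.8 in M67V and between 4.79 and 5.91 in the other 3. SYTL2, which links vesicles to RAB27 proteins, PIK3R5, a regulatory subunit of a phosphoinositide kinase, NEK10, a protein kinase, and the zinc finger gene ZNF804A had log2 ratios between 2.24 and 2.65. For all 14 of these genes, from MISP to ZNF804A, the levels in WT and M67V lay above those in the other 4 libraries. That WT lay above NT was fixed by the choice of genes. All 14 had under 5 CPM in NT, so they entered the comparison through WT alone. How many of all compared genes show the same order was not counted.

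**Figure D2:**
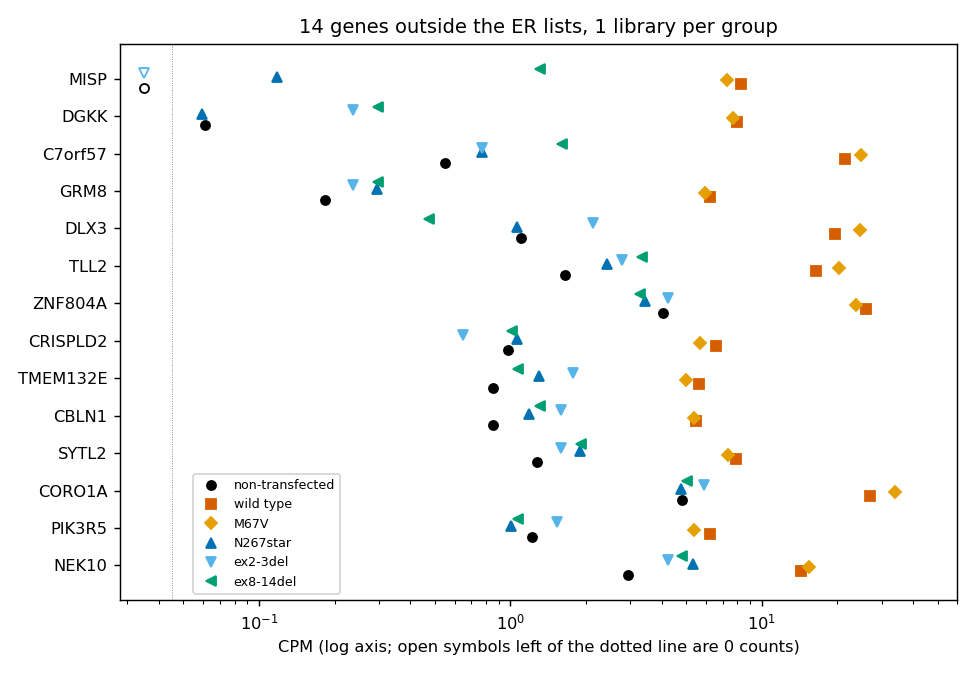
CPM (log axis) of the 14 highest genes outside the ER lists in each of the 6 libraries, 1 symbol per library, with open symbols for 0 counts. The WT squares and M67V diamonds lie to the right of the other 4 symbols in every row. For DLX3 they are at 19.6 and 24.7 CPM against at most 2.13 CPM. The genes were chosen for a high ratio of WT over NT, so the order of these 2 libraries was fixed in advance.

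Few reads came from this class in NT as a whole. The median NT value of the 40 genes was 4.49 CPM against 47.4 CPM for the 7444 genes of the same background that were not called, and CPM is not scaled to transcript length, whose medians were 3902.5 and 3754.5 bases. Of the 40, 7 had under 1 CPM in NT and 21 reached 5 CPM in WT only, so that they could enter the comparison only by being higher. The other 19 had at least 5 CPM in both libraries, of 7571 such genes. Among genes outside the ER lists without overlap, those just inside the 2-fold limit were ABCA5 (log2 ratio 1.01), STARD5 (1.05) and HIST2H2BE (1.06). Those just outside it were CNN2 (0.96), UBE2C (0.96) and PAIP2B (0.92).

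Genes with more reads filled the 1.3- to 2-fold range, and 82 of its 161 higher genes had at least 20 CPM in NT. UBE2C, the ubiquitin-conjugating enzyme that works with the anaphase-promoting complex, stood at 149.6 CPM in NT, 291 in WT, 302 in M67V, 152 in N267star, 170.4 in ex8-14del and 148 in ex2-3del. SLC39A14, a zinc and manganese importer of the cell surface, stood at 104 CPM in NT, 196 in WT, 193 in M67V and between 105 and 115 in the others. CNN2, an actin-binding calponin, stood at 57.9 CPM in NT, 113 in WT, 136 in M67V and between 56.8 and 70.7 in the others. In all 3 genes WT and M67V stood clear of the other 4 libraries, and the WT log2 ratios were 0.96, 0.91 and 0.96. For these and the other higher genes named in this range, that WT lay above NT was fixed by the choice of genes.

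ANXA6, a calcium-dependent membrane-binding annexin, stood at 124 CPM in NT, 210 in WT, 243 in M67V and between 120.1 and 127 in the others. PI4K2A, a phosphatidylinositol kinase of the Golgi and endosomes, stood at 61.3 CPM in NT, 111 in WT, 109 in M67V and between 65.7 and 71.6 in the others. NUCB2, a calcium-binding nucleobindin, stood at 65.1 CPM in NT, 115 in WT, 115 in M67V and between 72.8 and 81.9 in the others. These genes too had WT and M67V above the other 4 libraries. FAR1, which makes fatty alcohols for ether lipids, had the less separate levels of 166 CPM in NT, 250.2 in WT, 229 in M67V and 175 to 197 in the others.

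Among nuclear and ubiquitin genes, PJA2, a ubiquitin ligase, stood at 98.8 CPM in NT, 177 in WT, 166 in M67V and between 102 and 114 in the others. USP1, a nuclear deubiquitinase, stood at 296 CPM in NT, 440 in WT, 378 in M67V, 329 in N267star, 335 in ex8-14del and 301 in ex2-3del. BRD2, a reader of acetylated histones, stood at 1002 CPM in NT, 1320 in WT, 1290 in M67V and between 975 and 1062 in the others. BRD2 lay at the lower limit of the range with a log2 ratio of 0.40 (0.37 to 0.43), and was just under it (0.37) with libraries scaled by total counts. PTMA, a small acidic nuclear protein, CYCS, which encodes cytochrome c, and MSTO1, a mitochondrial distribution protein, had log2 ratios of 0.50, 0.56 and 0.86. These 3 genes have near-identical copies in the genome, so their counts are uncertain. LOC100506248 had a log2 ratio of 0.49. At the 1.3-fold limit, ACSL3, NT5DC3 and BASP1 were just inside and PFDN4, CLMN and RGS2 just outside, all with a log2 ratio of 0.38.

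The M67V library allowed a look at the same genes in libraries that the WT and NT comparison had not used. M67V was set against N267star, ex2-3del and ex8-14del, a choice made after values were seen, and these 3 comparisons share the M67V library. Of the 40 genes at least 2-fold higher in WT, 38 could be compared. All 38 were at least 1.3-fold higher in M67V than in N267star and than in ex2-3del, and 35 were higher and 1 lower than in ex8-14del. Among all genes outside the ER lists without overlap, 2.87%, 2.45% and 2.62% were higher by the same rule. The median log2 ratios of the 38 were 1.52, 1.54 and 1.26. Of the 161 genes in the 1.3- to 2-fold range, 62 of 159 were higher in M67V than in N267star (39.0%), 72 of 156 than in ex2-3del (46.2%) and 58 of 157 than in ex8-14del (36.9%). Against ex8-14del 6 of the 157 were lower (3.82%), beside 0.391% of all genes. Their median log2 ratios were 0.29, 0.34 and 0.28, smaller than the 0.50 that chose them.

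Against NT itself, the same library in every case, M67V had 42 genes at least 2-fold higher (0.543%) and 161 in the range below (2.08%). The corresponding counts were 0 (0.0%) and 53 (0.688%) for N267star, 2 (0.0259%) and 50 (0.648%) for ex2-3del, and 5 (0.0649%) and 62 (0.805%) for ex8-14del. For the 40 genes chosen in WT, the median log2 ratio over NT was 1.58 (WT), against 1.57 in M67V, 0.11 in N267star, 0.31 in ex8-14del and 0.25 in ex2-3del. For the 161 genes it came to 0.50 (WT), against 0.44 in M67V, 0.14 in N267star, 0.16 in ex8-14del and 0.09 in ex2-3del. WT and M67V were thus close in number and size of higher genes, each over the NT library they share.

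**Figure D3:**
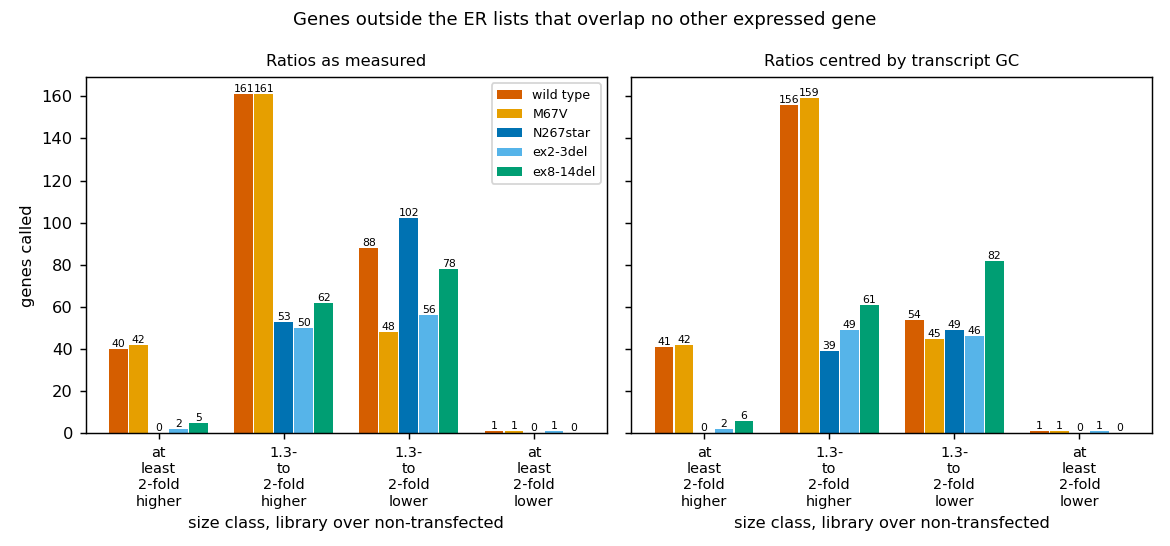
Number of genes in each size class for each transfected library over NT, among genes outside the ER lists that overlap no other expressed gene, as measured (left) and after the ratios were centred within bins of transcript GC (right). WT and M67V have 40 and 42 genes at least 2-fold higher against at most 5 in the other libraries as measured, while the 88 genes 1.3- to 2-fold lower in WT lie within the range of 48 to 102 in the other 4.

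Lower genes were fewer than higher genes in WT, and the N267star library gave more of them than WT did. In the 1.3- to 2-fold range they numbered 88 (1.14%) for WT, 48 (0.621%) in M67V, 102 (1.32%) in N267star, 78 (1.01%) in ex8-14del and 56 (0.726%) in ex2-3del. In WT only 19 of the 88 had at least 20 CPM in NT, and 19 passed the minimum of 5 CPM through NT alone. Their median transcript GC was 60.02%, against 47.8% for genes not called and 45.4% for the 161 higher genes of the same range.

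GC content moved with the ratio over all genes. With the genes cut into 10 equal parts by transcript GC, the median log2 ratio of WT over NT ran from 0.12 in the part with the lowest GC to -0.15 in that with the highest, a span of 0.27. The span was 0.26 for N267star, 0.10 for ex2-3del, 0.06 for ex8-14del and 0.05 for M67V. After the ratios were centred within bins of GC, WT had 41 genes at least 2-fold higher (0.53%), 156 in the higher range (2.02%), 54 in the lower range (0.698%) and 1 at least 2-fold lower (0.0129%). Of the original genes, 39 of 40, 125 of 161 and 41 of 88 stayed in their class. By the same step the lower range went from 102 to 49 genes (0.636%) for N267star, from 56 to 46 (0.596%) for ex2-3del, from 48 to 45 (0.582%) for M67V and from 78 to 82 (1.07%) for ex8-14del, which then had the most.

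**Figure D4:**
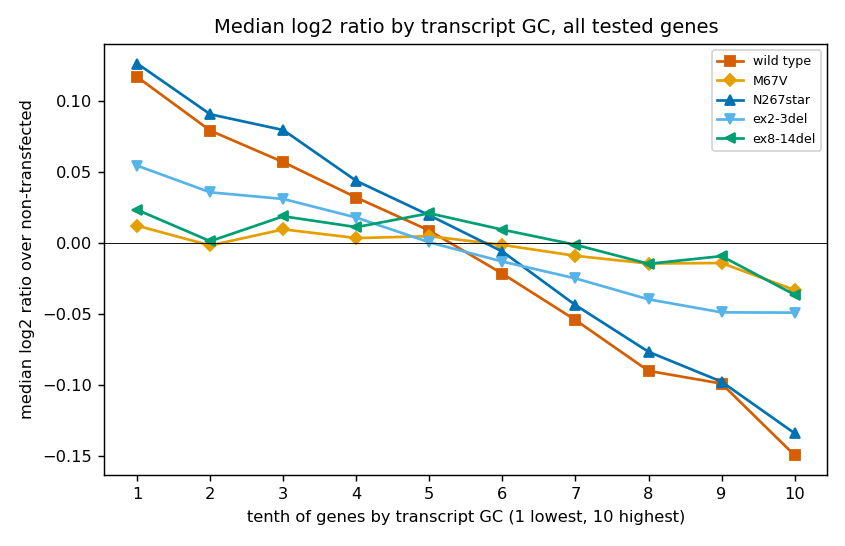
Median log2 ratio over NT of all tested genes in each of 10 equal parts by transcript GC, 1 line per transfected library. The WT and N267star lines descend from 0.12 and 0.13 to -0.15 and -0.13, while those of M67V and ex8-14del stay between -0.04 and 0.02.

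The single gene at least 2-fold lower without overlap was TTLL1, which adds glutamate chains to tubulin. It stood at 5.07 CPM in NT, 2.33 in WT, 3.79 in M67V, 4.14 in N267star, 3.69 in ex8-14del and 3.78 in ex2-3del, and its log2 ratio was -1.08 (-1.72 to -0.55). KIF26B, a kinesin-family protein, stood at 5.92 CPM in NT and 3.34 in WT, with 4.35 to 5.21 in the others. ITGB4, an integrin of the basement membrane contact, was under the minimum of 5 CPM, with 3.54 CPM in NT and 1.76 in WT. All 3 were low in every library, which leaves wide intervals.

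Better expressed lower genes showed small differences. DHRS3, which reduces retinaldehyde, stood at 16.9 CPM in NT, 10.1 in WT, 13.2 in M67V and 12.0 to 12.7 in the other 3, so NT was high and WT low. SDC1, a heparan sulfate proteoglycan of the cell surface, stood at 15.99 CPM in NT, 10.1 in WT and between 13.6 and 14.9 in the other 4. CYP1B1, a cytochrome P450, stood at 32.6 CPM in NT, 21.5 in WT, 20.1 in M67V, 22.4 in N267star, 18.3 in ex8-14del and 22.9 in ex2-3del. For CYP1B1 the NT library thus stood apart from all 5 transfected ones, and WT lay within their range.

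CTDSP1, a phosphatase of the RNA polymerase tail, stood at 68.7 CPM in NT, 51.7 in WT and between 61.7 and 68.5 in the other 4. TSPO, a cholesterol-binding protein of the outer mitochondrial membrane, stood at 28.8 CPM in NT, 20.8 in WT and between 25.2 and 28.02 in the other 4. GLI2, a transcription factor of hedgehog signalling, stood at 29.1 CPM in NT, 21.7 in WT and between 22.7 and 24.2 in the other 4. The log2 ratios of these 3 genes were -0.41, -0.47 and -0.43 as measured, and -0.30, -0.33 and -0.32 after GC centring, within the 1.3-fold limit. The homeobox gene MNX1, the RNA-binding protein MEX3D, the secreted kinase PKDCC and COMTD1, RPP25L, CUEDC1 and NATD1 had log2 ratios between -0.51 and -0.40. After centring they lay between -0.35 and -0.24, also within the limit. As measured, GLI2, COMTD1 and MEX3D were below NT in every transfected library with intervals that excluded equality, as CYP1B1 was. The log2 ratios of GLI2 over NT were -0.26 in M67V, -0.34 in N267star, -0.30 in ex8-14del and -0.36 in ex2-3del. POTEJ (-0.48) belongs to a family of near-identical copies, so its count is uncertain, and LOC107983993 (-0.65) has no GC value here. The remaining genes among the 15 lowest, ICOSLG, SH2B2, LOC107984648, ZNF287, JADE2, LOC105377135, CGNL1, ARHGEF16, RASL11B and SELENBP1, lay between 5.13 and 10.4 CPM in NT with log2 ratios between -0.74 and -0.60, and all of them but ARHGEF16 and SELENBP1 no longer met the rule with intervals of a higher confidence level.

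In the libraries that the comparison had not used, few of the lower genes were lower. Of those that could be compared, 1 of 83 (1.20%) was at least 1.3-fold lower in M67V than in N267star, 3 of 84 (3.57%) than in ex2-3del and 1 of 82 (1.22%) than in ex8-14del. The shares of all genes outside the ER lists without overlap were 0.756%, 0.56% and 0.391%. The members' median log2 ratios there were 0.04, -0.05 and -0.02. Over NT, the shared control, the median of the 88 genes came to -0.46 (WT), against -0.21 in M67V, -0.23 in N267star, -0.20 in ex8-14del and -0.16 in ex2-3del.

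The other 6 genes at least 2-fold lower all have a gene body that overlaps another expressed gene, and 3 of them are read-through entries that join neighbouring genes. JMJD7-PLA2G4B had 154 counts in NT and 0 in all 5 transfected libraries. TMED7-TICAM2 had 95 counts in NT, 0 in WT, 0 in M67V, 105 in N267star, 103 in ex8-14del and 126 in ex2-3del. TBC1D7-LOC100130357 had 104 counts in NT, 0 in WT and between 23 and 51 in the other 4. These rows jump between 0 and much higher counts among libraries of similar depth.

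Some of the overlapping partners were higher in WT. PLA2G4B, a phospholipase gene, stood at 5.43 CPM in NT and 11.5 in WT. TICAM2, a toll-like receptor adaptor, stood at 3.05 CPM in NT and 16.6 in WT, and TMED7, a cargo receptor of the early secretory pathway, at 95.5 and 151.5 CPM. At the depth of NT, WT held 221 more reads for TICAM2 and 917 more for TMED7, while the read-through entry held 95 in NT. TBC1D7, a subunit of the TSC complex, had a log2 ratio of 0.35, JMJD7 one of 0.29 and PHACTR1 one of 0.26, all under the 1.3-fold limit. FAXDC2 stood at 19.3 CPM in NT, 1.76 in WT, 11.9 in M67V, 2.25 in N267star, 28.3 in ex8-14del and 30.4 in ex2-3del. ZSCAN30, a zinc finger gene, stood at 15.6 CPM in NT, 2.27 in WT, 13.7 in M67V, 2.96 in N267star, 15.9 in ex8-14del and 12.2 in ex2-3del. Both genes were low in the same libraries, WT and N267star. All 7 genes at least 2-fold lower stayed so after GC centring. HAS3, a hyaluronan synthase, stood at 8.24 CPM in NT, 3.90 in WT, 3.66 in M67V, 9.23 in N267star, 3.15 in ex8-14del and 5.02 in ex2-3del. The part of overlap or read assignment in these differences was not tested.

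Lists of genes from pathways beyond the ER had 1077 members with at least 1 CPM in WT or NT, of 1223 listed. Of these, 45 were at least 1.3-fold higher and 13 lower, beside 441 (3.34%) and 232 (1.76%) of the 13187 genes at that minimum. The median log2 ratio of the members was -0.02. Because the lists were chosen with earlier results of these data known, the counts per list are a description only.

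Members of the circadian clock and of the arrestin and MAX group were among the higher genes. Of 24 clock genes measured, 5 were higher and 0 lower, with a list median of 0.12. PER1, a repressor of the clock, stood at 109 CPM in NT, 285 in WT, 311 in M67V, 96.6 in N267star, 135 in ex8-14del and 104 in ex2-3del, and had a log2 ratio of 1.39 (1.31 to 1.47). ARNTL, the clock activator BMAL1, stood at 10.5 CPM in NT, 19.1 in WT, 16.9 in M67V, 9.58 in N267star, 22.4 in ex8-14del and 11.1 in ex2-3del. PER3, TEF and CIART had log2 ratios of 0.61, 0.50 and 0.84, and PER3 and CIART no longer met the rule with intervals of a higher confidence level. WT stood high with M67V for PER1, and with ex8-14del and M67V for ARNTL.

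Of 16 genes in the arrestin and MAX group, 3 were higher and 0 lower, and the list median was 0.02. ARRDC4, an alpha-arrestin related to TXNIP, stood at 36.9 CPM in NT, 126 in WT, 109 in M67V, 35.5 in N267star, 118 in ex8-14del and 33.7 in ex2-3del. MXD1, a repressor that competes with MYC for MAX, stood at 21.1 CPM in NT, 73.3 in WT, 65.8 in M67V, 23.0 in N267star, 72.8 in ex8-14del and 18.1 in ex2-3del. Its gene body overlaps SNRNP27. TXNIP, an inhibitor of glucose uptake, had a log2 ratio of 0.43. NEU1, the lysosomal sialidase, stood at 58.7 CPM in NT, 149.9 in WT, 135 in M67V, 75.0 in N267star, 213 in ex8-14del and 78.2 in ex2-3del. ARRDC4, MXD1 and NEU1 were therefore high in WT, M67V and ex8-14del, and NEU1 was highest in ex8-14del. In that library HSPA5 was at 741 CPM, against 559 in NT.

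The lysosomal list around NEU1 had 2 of 56 members higher, a share near that of all genes (3.34%), 0 lower and a median of 0.00, and the second higher gene was GM2A at 0.39, or 0.37 and under the limit with total counts. Of 37 autophagy genes, 2 were higher, WIPI1 at 1.36 and OPTN at 0.65, and both overlap another gene. Of 38 immediate-early and MAPK feedback genes, 6 were higher. FOS, an AP-1 subunit, had a log2 ratio of 1.73 but only 0.67 CPM in NT and 2.52 in WT. The transcription factors NR4A2 (0.81), EGR1 (0.59), KLF10 (0.51) and KLF6 (0.46) and IER3 (0.39) were the others, of which EGR1 and IER3 no longer met the rule at that confidence. GADD45A and GADD45B, stress genes of growth arrest, had log2 ratios of 0.59 and 0.74 and were the 2 higher of 23 genes in the p53 list. Of 26 histone genes, 5 were higher, with HIST2H2BE at 6.17 CPM in NT and 13.03 in WT and 3 of the others under 6 CPM in both libraries and not past the rule at that confidence. Histone genes are near-identical in sequence, so single members are uncertain.

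In the tubulin, cytosolic heat shock and mitosis lists a single member each was higher. These shares are near or under the 3.34% of all genes at the same minimum, so the lists did not stand out. The tubulin list, with 31 genes measured, also held the lower gene TTLL1. TUBB3, a tubulin of neurons, stood at 30.5 CPM in NT, 78.9 in WT, 76.2 in M67V and between 26.9 and 37.5 in the others. DNAJB5, a cytosolic co-chaperone, stood at 16.8 CPM in NT, 36.7 in WT, 40.8 in M67V and between 16.3 and 21.8 in the others, the only called gene of 44 in the cytosolic heat shock list. UBE2C was the only one of 53 mitosis genes. Both TUBB3 and DNAJB5 stood high in WT and M67V.

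In the matrix and adhesion list 5 of 63 members were higher and 2 lower. TLL2 was the highest, ITGA1 (0.83) overlaps PELO, and COL5A2 (0.89), COL3A1 (0.92) and LOXL1 (0.62) had under 5 CPM in both libraries. ITGB4 (-0.96) and the basement membrane proteoglycan HSPG2 (-0.39) were lower. Of 59 homeobox genes, DLX3 and DLX6 (0.48) were higher, and NKX1-2, at 1.77 CPM in NT and 0.69 in WT, was lower. Elsewhere MT2A, a metal-binding metallothionein, stood at 15.02 CPM in NT, 10.1 in WT and between 11.4 and 14.4 in the other 4. ALDOC, a glycolytic aldolase (-0.55), CHRNB1, a subunit of the muscle acetylcholine receptor (-0.55), WNT10B, a WNT ligand (-0.49), LGR5, a receptor of WNT agonists (-0.48) and BMF, a BCL2-family death gene (-0.47), were lower as well. With intervals of a higher confidence level ALDOC, WNT10B, LGR5 and BMF no longer met the rule, nor did DLX6, NKX1-2, COL3A1, LOXL1, HSPG2 and ITGB4, and WNT10B and HSPG2 did not after GC centring either.

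Large housekeeping lists had no called member. None of 77 cytosolic ribosomal protein genes, 72 respiratory chain genes, 41 proteasome subunits or 27 genes of mitochondrial biogenesis and protein stress was at least 1.3-fold higher or lower with an interval that excluded equality. Their median log2 ratios were -0.07, -0.06, 0.00 and -0.02, and the widest single values were -0.33 and 0.50. None of 26 NF-kB and interferon genes and none of 20 genes of the TFEB family and the lysosomal proton pump was called. Of 63 Golgi genes only MAN2A1, an N-glycan mannosidase (0.40), was higher, and with total counts it was at 0.38 and under the limit, and of 52 DNA replication genes only CCNE2 (0.55), which overlaps other genes.

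Marker genes were checked against the labels. All 10 genes typical of the HEK293 lineage were measured, with a summed level of 1080 CPM in NT and 1127 CPM in WT and none called. Of 20 markers of other cell types, 4 reached 1 CPM and 8 had 0 counts in both libraries, and their summed level was 15.9 CPM in NT and 19.3 CPM in WT. CD68, a lysosomal glycoprotein used as a macrophage marker, was called at 3.42 CPM in NT and 6.04 in WT.

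The ER stress elements shown above were searched in the promoter windows of all 9304 compared genes with a RefSeq entry, on both strands. Element I was found in 13 genes (0.140%) and element II in 10 (0.107%). In the whole reference table of 27305 promoters the shares were 0.0806% and 0.0549%. Element II was added to the search after values were seen. Another motif, TGACGTGG, was found in 93 genes (0.9996%), 0.795% of the reference table. It overlaps element II in HYOU1, and no other gene held more than 1 of the 3 motifs.

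The 23 genes with either element were set apart by sequence among genes that reached 5 CPM in WT or NT. With element II added after values were seen, and HSPA5 and HERPUD1 among the 23, their counts are not an independent check. Of the 23 genes, 13 had a WT level at least 1.3-fold above NT and 0 were lower. The shares of all genes compared were 3.08% and 1.31%, and the median log2 ratio of the 23 was 0.46. Within the ER lists 10 of 11 were higher, all but ALG12, at 45.9 CPM in NT and 53.4 in WT. Outside them 3 of 12 were higher, with a median of 0.23. TRIM5, an antiviral restriction factor, stood at 6.47 CPM in NT, 18.1 in WT, 18.5 in M67V, 6.03 in N267star, 8.51 in ex8-14del and 6.20 in ex2-3del. Its body overlaps TRIM6, which had a log2 ratio of 0.03. NUCB1, a calcium-binding nucleobindin of the Golgi and the paralog of NUCB2, stood at 149 CPM in NT, 206 in WT, 228 in M67V, 156 in N267star, 155 in ex8-14del and 150.4 in ex2-3del. Both were high in WT and M67V alone.

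TMEM120A, a membrane protein, was also higher, at 14.8 CPM in NT and 19.95 in WT, and it overlaps POR. SERP1, which stabilises newly made membrane proteins in the ER but is in none of the lists, stood at 116 CPM in NT, 144 in WT, 137 in M67V and between 122 and 132 in the others. EIF2A, PLS3, SHCBP1, RAD9A, SETD3 and ZNF17 had log2 ratios between 0.16 and 0.25, and GYS1 and ZNF143 ones of -0.05 and -0.06. An element in the window was thus found with ratios from -0.06 to 2.82.

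**Figure D5:**
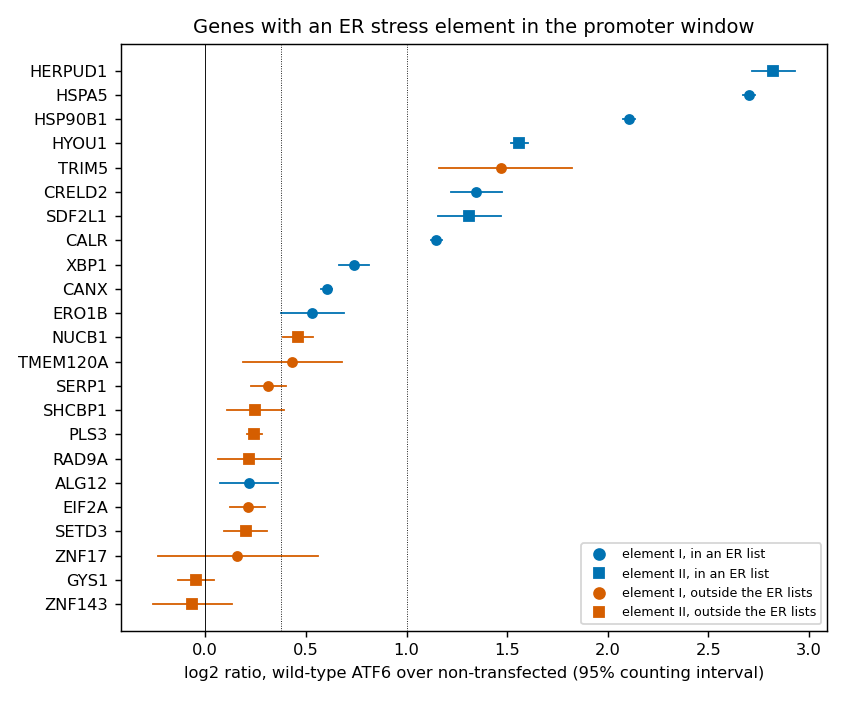
Log2 ratio of WT over NT with its 95% counting interval for the 23 genes with element I (circles) or element II (squares) in the promoter window, blue for members of the ER lists and orange for other genes, with dotted lines at 1.3-fold and 2-fold. Outside the ER lists TRIM5, NUCB1 and TMEM120A lie past the 1.3-fold line.

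Genes outside the ER lists without overlap were looked at by size class. Of the 40 genes at least 2-fold higher, 33 had a promoter entry and none held any of the 3 motifs. Of 128 with an entry in the 1.3- to 2-fold range, 2 did, NUCB1 with element II and LARP1B, an RNA-binding protein, with TGACGTGG. That is 1.56%, beside 0.840% of the genes that were not called, so the shares are close. TRIM5 and TMEM120A are left out of these counts because they overlap another gene. None of the 61 lower genes with an entry held a motif. Of 62 higher genes in the ER lists with an entry, 13 did (21.0%). This share has no background of its own kind here. Any of the 3 motifs stood in 115 of all 9304 compared genes with an entry and in 85 of the 8940 outside the ER lists. Motifs were thus more frequent in ER-list genes as a whole. The share among ER-list genes that were not higher was not counted. Only exact letters were searched, so near matches were missed. With a motif in 0.840% of the genes that were not called, none among 33 or 61 genes does not show a lack. The absence of these letters from a window says nothing about binding elsewhere.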

How the data were processed

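Per the labels' protocols, HEK293T RNA came from an RNeasy extraction and BGI made the libraries. The authors deposited a table of expected counts (estimated counts) per gene symbol for 6 libraries. The submitters' processing notes name GRCh37.p13 and DESeq. The sources used here give no aligner, counter or strand setting. Without strand, reads of overlapping genes cannot be told apart. A placeholder of 0.028 was set to 0, counts were rounded, 28 rows with date names were left out (0.215% to 0.231% of counts), and rows sharing a symbol were summed. A second table was used only for its header, and its 6 columns of per-sample values were not used. Sheets of comparisons deposited by the authors give a fold (ratio), a log2 fold change and p-values for each gene. They list 207 higher and 11 lower genes at an adjusted p under 0.05, and these p-values come from 1 library a side.

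Library totals ran from 16023926 to 16813314 counts, so the floor of 3 counts is 0.178 to 0.187 CPM. Library sizes were scaled by TMM (edgeR 4.0.16, R 4.3.3). Log2 ratios used a prior count of 2, and 95% intervals were exact Clopper-Pearson intervals. PCR reads are not independent molecules, so intervals and floors cover counting error only. Genes with 5 CPM in either library were compared, and list members with 1 CPM. Overlap, GC and promoters came from annotations of GRCh38, another build, used by gene name. They covered 99.3% of expressed genes, and 28.9% of compared genes overlap another. GC centring subtracted the median ratio in 20 bins. The call rule was tested on simulated data. Tables were made with pandas 2.3.3, numpy 2.4.6 and scipy 1.17.1 and plots with matplotlib 3.10.9 (Python 3.11.15).

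The members and lists were chosen with earlier results of these data known. Named genes were HSPA5, HERPUD1 and ATF6, the 15 highest and 15 lowest outside the ER lists without overlap, 15 higher and 15 lower in the 1.3- to 2-fold range with the largest ratio over its counting error, and up to 4 called members per list. Of the genes so chosen, 2 are not reported here. Lists' further members, overlapping lower genes, genes at the thresholds and genes with a motif were named after their values were seen. Alternatives were DESeq2 1.42.0 size factors, total counts, other minimums, a prior of 0.5, intervals of a higher confidence level and the removal of overlapping genes.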

Additional observations from a re-analysis of the deposited data

How the results depend on the processing

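No paired analysis was possible because each group holds 1 library, and for the same reason no library could be left out. Size factors of DESeq2 and a prior count of 0.5 left each count within 1.5 times its reported value, as did total counts. The 82 genes at least 2-fold higher became 130 with a minimum of 1 CPM, 166 with none, 54 without overlapping genes and 54 with 5 CPM in both libraries. The 7 at least 2-fold lower became 40, 60, 1 and 0 under those settings. With a minimum of 20 CPM the 1.3- to 2-fold range had 170 higher genes in place of 266 and 36 lower in place of 141. Its lower genes numbered 57 with intervals of a higher confidence level, 88 without overlap and 82 after GC centring. All lower genes together, 148, became 232 at 1 CPM, 64 with intervals of a higher confidence level, 89 without overlap and 89 after GC centring. The settings of GC centring and of 5 CPM in both libraries were chosen after seeing the data, and the cause of the differences was not tested. Of 110 named genes and called list members, none changed direction under DESeq2 size factors, total counts, the smaller prior, intervals of a higher confidence level or GC centring. With intervals of a higher confidence level 29 no longer met the 1.3-fold rule, after GC centring 14 and with total counts 5. With 1 library a side, culture-to-culture spread is not measured, and genes near 5 CPM carry the widest intervals.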
